A study of Homo sapiens with 84 samples.

Results

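The response of SUDHL10 to PQR309 was described from 6 expression arrays of that lymphoma line, out of 84 arrays in the series. The 6 arrays were taken by their labels alone: cell line SUDHL10, treated either with PQR309 or with the solvent DMSO, each at 4, 8 and 12 h. PQR309 is an inhibitor of PI3K and mTOR, and SUDHL10 received no other inhibitor. Its response was the log2 level under PQR309 minus that under DMSO at the same time, so the 3 times served as replicates. The labels give no dose and call the cells lymphoma cells grown in vitro.

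The same difference was available in 7 other lymphoma lines, DOHH2, OCILY1, OCILY18, RIVA, SUDHL2, TMD8 and U2932, which with SUDHL10 made up 48 arrays. Each combination of line, treatment and time was 1 array, and each line is an established culture. Nothing in the labels says that the 3 times came from separate cultures, so the p-values measure only the spread between these arrays. A lower level in such bulk RNA can come from fewer cells of a kind or from less RNA per cell, which cannot be told apart.

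PI3K makes a membrane lipid that activates the kinase AKT, and mTOR, in 2 complexes, couples growth signals to protein, lipid and ribosome synthesis. AKT keeps the FOXO transcription factors out of the nucleus, so their targets are classic genes to rise when the pathway is blocked. In B cells the pathway acts downstream of the B-cell receptor and works alongside MYC, the transcription factor that drives ribosome production and metabolic genes.

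The SUDHL10 arrays carried B-cell and germinal-centre markers. Of the 7 pan-B-cell markers that had a probe, 6 were above the detection limit on all 3 DMSO arrays, and of 8 germinal-centre markers 7 were, among them BCL6 at 10.68 and SERPINA9 at 10.26 on the log2 scale. The exception among the B-cell markers was PAX5, whose probe read 6.53, below the limit of 6.73. Of 8 activated-B-cell markers 5 were above that limit on all DMSO arrays, FUT8 at 8.18, PIM2 at 7.81, IL16 at 7.14, IRF4 at 6.94 and ETV6 at 6.86, while BATF, CCND2 and CYB5R2 were below it. Of 5 plasma cell markers 4 were above it, JCHAIN at 10.71, MZB1 at 9.54, XBP1 at 8.97 and SDC1 at 6.89, while PRDM1 was below at 6.53. Of 7 T-cell, 7 myeloid and 6 stromal markers, 1, 1 and 0 were above the limit on all DMSO arrays, and their summed linear levels were 674.5, 721.1 and 582.5 under DMSO against 662.6, 719.9 and 596.6 under PQR309. The deposited values had the same median, 6.64, on the 6 arrays. Before normalization the 4 h DMSO array stood apart, with a median raw intensity of 139.73 against 95.26 to 101.2 on the other 5 arrays.

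PQR309 changed fewer genes in SUDHL10 than in most of the lines. Of 12441 genes tested, 117 rose (0.94%) and 89 fell (0.715%) at an adjusted p under 0.05 (limma, Benjamini-Hochberg over all genes). The total of 206 was the second lowest of the 8 lines, above 1 gene in SUDHL2 and below 913 in RIVA, 1165 in OCILY18, 1500 in TMD8, 1557 in U2932, 2036 in DOHH2 and 2039 in OCILY1. The mean absolute difference over all genes was 0.0975 in SUDHL10 and 0.0928 in SUDHL2, against 0.137 to 0.171 in the other 6 lines. Among the 206 genes, 204 had the same sign at all 3 times. The count rests on the times that are pooled: it was 61 without 12 h, 350 without 4 h and 21 without 8 h. With the spread taken from SUDHL10 alone it was 8, namely DDIT4, EHD1, ELF1, KLHL24, MYC, PEX5, RAPH1 and RNF144B.

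**Figure D1:**
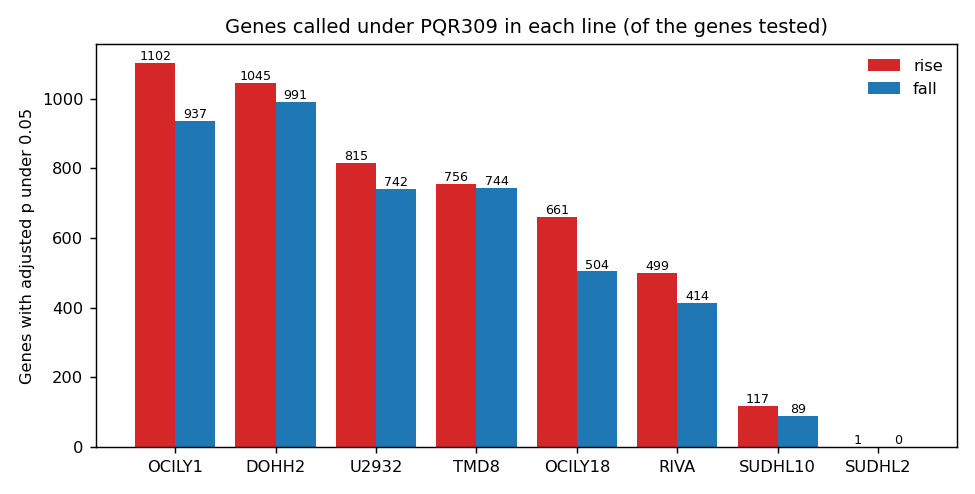
Bars give the number of genes with adjusted p under 0.05 that rose (red) or fell (blue) under PQR309 in each line, from 1 limma fit of 24 differences. SUDHL10, with 117 rises and 89 falls, stands seventh of 8, between RIVA (499 and 414) and SUDHL2 (1 and 0).

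The strongest rise was that of CXCR4, the receptor for the homing chemokine CXCL12. Its log2 level was 7.92, 8.14 and 7.93 under DMSO at 4, 8 and 12 h, and 10.01, 9.79 and 9.10 under PQR309. The treated arrays lay well above all the DMSO arrays, most widely at 4 h. The mean difference was 1.64 ± 0.46 (SD, n = 3), a 3.11-fold rise, with SE 0.20 and adjusted p = 5.9e-05 in the limma fit. A second CXCR4 probe rose by 1.11, and another, below the detection limit on all 6 arrays, gave -0.01.

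VPREB1, part of the surrogate light chain of the pre-B-cell receptor, read 7.71, 7.52 and 7.96 under DMSO and 8.62, 8.84 and 9.09 under PQR309 at 4, 8 and 12 h. The 2 groups did not overlap, and the difference was 1.12 ± 0.20 (SD, n = 3; adjusted p = 4.2e-06, limma). MME, which encodes the germinal-centre surface peptidase CD10, went from 8.73, 8.65 and 8.55 to 9.32, 10.03 and 9.85, a difference of 1.09 (adjusted p = 2.3e-05). Its treated arrays were all above the DMSO arrays, with the smallest gap at 4 h. BACH2, a repressor that holds B cells short of plasma cell fate, rose by 0.975 (adjusted p = 0.011, limma), but unevenly. Its DMSO levels were 7.86 at 4 h and 6.48 and 6.58 later, so only the 4 h DMSO array was above the detection limit, and its difference was 0.06 at 4 h, 1.70 at 8 h and 1.17 at 12 h. The treated 12 h array, at 7.74, lay below that 4 h DMSO array, so the groups overlapped. Dimmer BACH2 probes gave 0.50 and 0.23.

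MYC also rose, and did so evenly. Its level was 11.07, 11.06 and 11.01 under DMSO and 12.23, 12.07 and 12.003 under PQR309 at 4, 8 and 12 h. The treated arrays were about a doubling above the DMSO arrays at every time, with no overlap: 1.05 ± 0.09 (SD, n = 3), 2.07-fold, adjusted p = 0.0005 (limma). The adjusted p of the MYC response was 0.061 without the pairing of arrays by time and 0.102 without 8 h. The dimmer of the 2 MYC probes rose by 0.73 with a larger spread between times (SD 0.57).

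The other genes in the group of largest rises had varied roles. ELF1, an ETS-family transcription factor, went from 10.41, 10.23 and 10.27 to 11.58, 11.45 and 11.16, a difference of 1.09 ± 0.18 (SD, n = 3; adjusted p = 1.4e-05, limma). EHD1, which recycles receptors from endosomes, rose by 1.05 ± 0.08 and the ubiquitin ligase gene RNF144B by 0.997 ± 0.03 (SD, n = 3), with adjusted p of 0.00045 and 8.2e-05. For both genes every treated array was above every DMSO array. The kinase gene PIM1 rose by 0.99 (adjusted p = 0.0053), from 6.96, 6.69 and 6.69, of which only the 4 h value was above the detection limit, to 8.13, 7.66 and 7.51. TXNIP, an arrestin that restrains glucose uptake, rose by 0.94 (adjusted p = 0.0027) from 8.76, 8.78 and 8.46 to 9.58, 9.60 and 9.63.

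**Figure D2:**
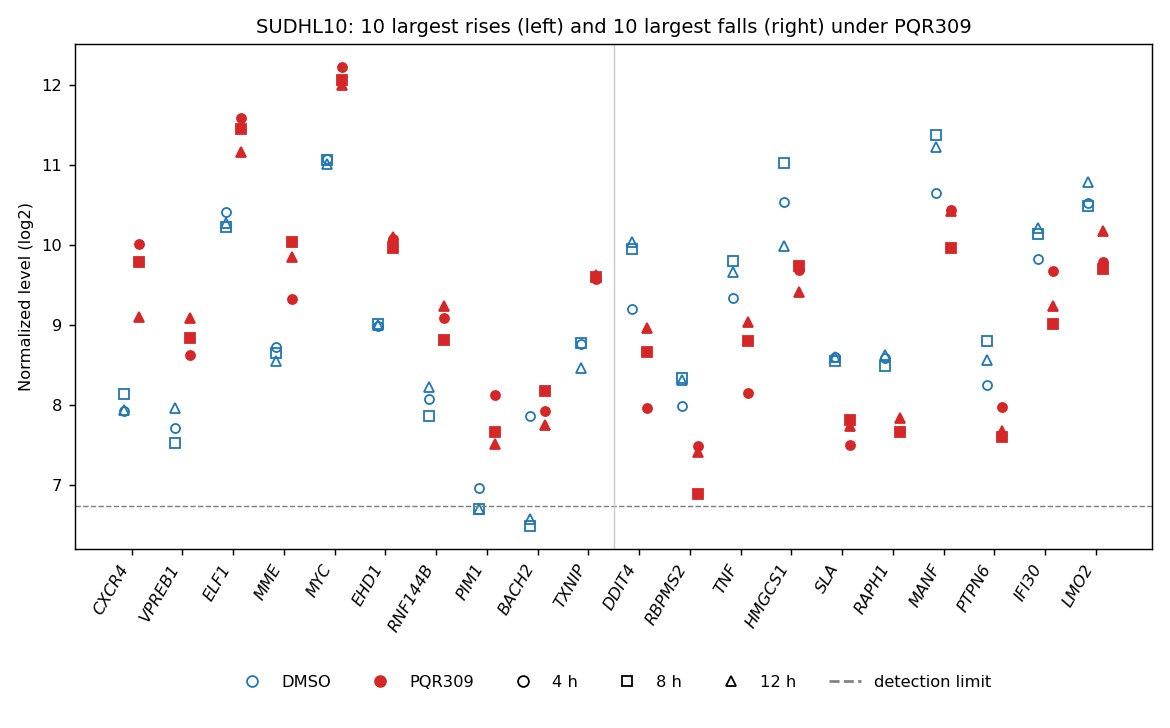
Points are the normalized log2 levels of the 10 genes with the largest rises and the 10 with the largest falls on the 6 SUDHL10 arrays (blue open, DMSO; red filled, PQR309; symbol shape, time); the dashed line is the detection limit of 6.73. MYC under DMSO sits at 11.01 to 11.07 and under PQR309 at 12.003 to 12.23, while BACH2 under DMSO is far higher at 4 h (7.86) than at 8 h (6.48) or 12 h (6.58).

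The deepest fall was that of DDIT4, a stress-induced inhibitor of mTOR complex signalling. Its level was 9.20, 9.94 and 10.04 under DMSO and 7.96, 8.67 and 8.97 under PQR309 at 4, 8 and 12 h. Each treated array was lower than all 3 DMSO arrays, although the level of both groups was lowest at 4 h. DDIT4 fell by 1.20 on the log2 scale (SD 0.11, n = 3; adjusted p = 6.7e-05, limma).

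TNF, the inflammatory cytokine, fell by 0.93 (adjusted p = 0.0008), from 9.33, 9.80 and 9.66 to 8.15, 8.80 and 9.04. HMGCS1, an early enzyme of cholesterol synthesis, fell by 0.90 (adjusted p = 0.0048), from 10.54, 11.02 and 9.99 to 9.69, 9.74 and 9.41. In both genes the treated arrays lay below the DMSO arrays without overlap. SLA, an adaptor that lowers antigen receptor signalling, fell by 0.90 (adjusted p = 4.1e-05, limma), and PTPN6, the phosphatase SHP-1, fell by 0.79 (adjusted p = 0.040). LMO2, a germinal-centre transcription cofactor, fell by 0.72 (adjusted p = 0.0016) while MME rose. Of 7 germinal-centre markers tested, 3 rose (MME, GCSAM, MYBL1) and 1 fell, beside 0.94% and 0.715% of all genes, so the called markers differed in direction.

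The actin regulator gene RAPH1 fell by 0.85 (SD 0.06, n = 3), with the lowest adjusted p of the named falls, 2.0e-08 (limma). It read 8.58, 8.48 and 8.63 under DMSO and 7.67, 7.65 and 7.83 under PQR309, with no overlap. RBPMS2, an RNA-binding protein gene, fell by 0.95 (SD 0.48, n = 3; SE 0.11, adjusted p = 2.6e-05), from 7.98, 8.34 and 8.31 to 7.48, 6.88 and 7.41. The SE pools the spread over all 8 lines, and RBPMS2 was above the detection limit in only 2 of the others. With the spread taken from SUDHL10 alone RBPMS2 did not pass. MANF, a protein of the endoplasmic reticulum, fell by 0.81 (adjusted p = 0.0050) and IFI30, a lysosomal thiol reductase, by 0.75 (adjusted p = 0.042). For MANF and IFI30 the 4 h difference was small, -0.22 and -0.16, against -1.42 and -1.12 at 8 h.

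Known FOXO targets rose as far as they changed. Of 40 listed genes 37 were tested, and 9 rose and 0 fell, against 117 rises and 89 falls among all genes tested. The list median was 0.18, against -0.003 over all genes, and 31 of the 37 values were above 0. In the contrast with the other lines 0 of the 37 passed, beside 0.273% higher and 0.201% lower among all genes. The members that rose were CXCR4, PIM1, TXNIP, KLHL24 (0.84), FBXO32 (0.63), CCNG2 (0.61), PDCD4 (0.54), CITED2 (0.51) and CDKN1B (0.42). CCNG2, a cyclin-like brake on the cell cycle, read 7.52, 7.47 and 7.75 under DMSO and 8.36, 8.07 and 8.15 under PQR309 at 4, 8 and 12 h (adjusted p = 0.031, limma). CDKN1B encodes the CDK inhibitor p27, and its levels were 7.67, 7.83 and 7.87 against 8.23, 8.34 and 8.06, without overlap (adjusted p = 0.0069), though it did not pass in 8 of 15 alternatives. A dimmer CDKN1B probe gave 0.18. KLF2, which controls lymphocyte trafficking, was low in SUDHL10: 6.99, 6.98 and 6.78 under DMSO and 6.78, 6.77 and 6.67 under PQR309. Its difference of -0.18 did not pass the test (adjusted p = 0.90), while the means of the other lines ran from -0.09 to 1.48.

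The letters GTAAACA, the core of a FOXO site, were searched on both strands in RefSeq promoter windows (GRCh38.p14) from 250 bases before to 50 after the gene start. Of the 9 FOXO targets that rose, 8 had a window and 1, TXNIP, held the letters, against 3.41% of 27305 promoters. The TXNIP window, shown because it alone of the 8 held the letters, lies on the minus strand at chr1:145996530-145996829 and is printed in the direction of the gene with the match in capitals.
TXNIP: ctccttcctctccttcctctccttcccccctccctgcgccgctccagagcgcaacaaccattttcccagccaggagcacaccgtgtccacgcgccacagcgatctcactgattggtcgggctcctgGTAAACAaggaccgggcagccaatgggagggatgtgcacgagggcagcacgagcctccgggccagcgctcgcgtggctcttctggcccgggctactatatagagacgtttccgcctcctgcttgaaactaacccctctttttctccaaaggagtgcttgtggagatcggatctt
The match is a description of the letters in this window.

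Of 30 genes of the pathway itself, 2 rose and 0 fell, beside 0.94% and 0.715% of all genes, and the list median was 0.02. DEPTOR, an inhibitory partner of mTOR, rose by 0.68 (adjusted p = 0.014, limma), although its differences were -0.14, 1.19 and 0.98 at 4, 8 and 12 h, so the 4 h pair went the other way. DEPTOR was above the detection limit in 3 of the other lines, and did not pass with the spread taken from SUDHL10 alone. FOXO4 rose by 0.47 (adjusted p = 0.040), with levels of 7.21, 7.52 and 7.47 under DMSO and 7.75, 8.03 and 7.83 under PQR309, but did not pass in 9 of 15 alternatives. The catalytic subunit genes PIK3CB, PIK3CD and PIK3CG gave -0.13, 0.11 and 0.43, AKT1 gave 0.02 and MTOR 0.02, and none of these passed the test.

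Several chaperone and endoplasmic reticulum folding genes fell. Of 23 heat shock genes tested 4 fell and 0 rose, beside 0.715% and 0.94% of all genes, with a list median of -0.25. HSPA8, the constitutive cytosolic HSP70, read 12.64, 13.16 and 13.16 under DMSO and 11.98, 12.70 and 12.42 under PQR309 at 4, 8 and 12 h, and fell by 0.62 (adjusted p = 0.0099, limma). The treated 8 h array lay above the 4 h DMSO array, so the groups overlapped although each difference was negative. HSPH1 (-0.65), DNAJA1 (-0.57) and DNAJB1 (-0.53) also fell, although in 8, 5 and 9 of 15 alternatives they did not pass. Of 21 genes of the unfolded protein response 4 fell and 2 rose, beside the same shares of all genes, with a median of -0.21. The ER chaperone gene HSPA5 fell by 0.69 (adjusted p = 7.4e-05, limma), from 8.32, 8.47 and 8.46 to 7.73, 7.67 and 7.78. DNAJB11 (-0.62), MANF and HSP90B1 (-0.51) fell too. The 2 that rose were EIF2AK3, the ER stress kinase PERK (0.83, adjusted p = 7.4e-05), and EDEM1 (0.47), which helps dispose of misfolded glycoproteins. XBP1, a transcription factor of that response, gave -0.49 and did not pass (adjusted p = 0.088).

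Some lipid synthesis genes fell. Of 19 cholesterol genes 2 fell, beside 0.715% of all genes, HMGCS1 and ACAT2 (-0.54, adjusted p = 0.027, limma), and 16 of 19 values were negative, with a median of -0.28. A dimmer ACAT2 probe gave -0.20. Of 17 fatty acid genes 1 fell, the desaturase gene SCD (-0.57, adjusted p = 0.031, not passing in 9 of 15 alternatives), while FASN, the fatty acid synthase, gave 0.30, -0.77 and -0.37 at 4, 8 and 12 h and did not pass. In the amino acid stress programme of ATF4, 1 of 40 genes fell, DDIT4, and ASNS gave 0.09. Of 24 glycolysis genes 0 passed in either direction, beside 0.94% rising and 0.715% falling among all genes, with HK2 at -0.27 and LDHA at -0.10.

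The cell cycle, survival and immune lists held 0 to 2 calls each, beside 0.94% of all genes that rose and 0.715% that fell. No G1/S gene of 54 and 1 G2/M gene of 50 passed, CCNB2, a mitotic cyclin (0.38, adjusted p = 0.030, limma), and 2 of 65 ribosomal protein and elongation genes rose, RPL13A (0.58) and RPS23 (0.37). Of 18 BCL2-family genes 0 passed: BCL2L11, the death gene BIM, gave 0.33 (adjusted p = 0.22), MCL1 gave 0.01, and BCL2 was above the detection limit on 1 of 6 arrays. Among 24 B-cell receptor signalling genes 2 fell, PTPN6 and the inhibitory Fc receptor gene FCGR2B (-0.56), both of which restrain the receptor, while BTK gave -0.004 and SYK 0.11. Of 34 NF-kB genes 2 fell, TNF and the lymphotoxin gene LTA (-0.67), and NFKBIA gave 0.42 without passing (adjusted p = 0.42). The B-cell surface gene MS4A1, which encodes CD20, fell by 0.58 (adjusted p = 0.012), from 9.52, 9.35 and 9.30 to 8.92, 8.62 and 8.89. A dimmer MS4A1 probe, above the detection limit on all 6 arrays, gave -0.17. Dimmer FCGR2B probes gave -0.24 and -0.22.

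Set against the other lines, 59 of the 12441 genes answered PQR309 differently in SUDHL10. The contrast of SUDHL10 minus the mean of the other 7 lines, tested in the same limma fit, was higher for 34 genes (0.273%) and lower for 25 (0.201%) at an adjusted p under 0.05. The SUDHL10 mean lay above all 7 other line means for 29 of these (0.233%) and below all for 22 (0.177%). In the other lines the same contrast gave 73 genes in SUDHL2, 90 in RIVA, 132 in OCILY18, 141 in U2932, 362 in TMD8, 404 in OCILY1 and 517 in DOHH2. The test uses the spread between times within lines, so it compares these 8 lines only. With the lines as samples 3 genes passed, HINT3, ST8SIA5 and RAPH1, and the count ran from 1 without 8 h to 357 without 4 h.

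Where these genes can be measured matters for reading them. Of the 51 genes outside the range of the other lines, 28 were above the detection limit on at least 3 of 6 arrays in all 8 lines. Another 14 were measured in SUDHL10 and in 1 to 6 other lines, 6 in SUDHL10 and no other line, and 3 were not above the limit on 3 SUDHL10 arrays.

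MYC had the largest of the 59 differences. It rose by 1.16, 1.01 and 0.99 at 4, 8 and 12 h in SUDHL10, while its mean difference was -0.90 in U2932, -0.88 in TMD8, -0.36 in OCILY1, -0.18 in RIVA, 0.13 in OCILY18, 0.27 in DOHH2 and 0.41 in SUDHL2. SUDHL10 was thus above the 7 other lines, which themselves were split in sign. SUDHL10 minus the others was 1.27 with SE 0.17 (adjusted p = 0.00032, limma). The value stayed between 1.04 and 1.40 over 23 alternatives, and its adjusted p was 0.065 without pairing by time, 0.057 without 12 h, 0.19 without 8 h and 0.9999 with the lines as samples. The DMSO level of MYC, 11.05, lay within the 8.12 to 11.95 of the other lines. The dimmer MYC probe gave a difference of 0.97.

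The 10 highest contrasts were ranked among named genes outside the range of the other lines on the probe used. Of these, 5 (LYAR, SNHG15, PLD6, EPOP and CCL3) did not pass in the SUDHL10 response and came from lower means in the other lines. LYAR, a nucleolar protein of ribosome production, read 10.79, 10.79 and 10.52 under DMSO and 10.54, 10.78 and 10.81 under PQR309 at 4, 8 and 12 h. The SUDHL10 groups overlapped, with a mean of 0.01, whereas the 7 other lines had means of -0.99 to -0.44. The contrast was 0.78 with SE 0.16 (adjusted p = 0.020, limma), and 0.51 on a second probe whose SUDHL10 difference was -0.28. That second probe, at 10.77 under DMSO in SUDHL10, fell evenly over the times (SD 0.03). Its SUDHL10 difference lay within the -1.001 to -0.18 of the other lines, so the flat response held for the probe used only. SNHG15, a host gene of small nucleolar RNA, gave 0.01 in SUDHL10 against -1.08 to -0.01 in the others (contrast 0.62, adjusted p = 0.031). The value of -0.01 was that of SUDHL2, which had 1 called gene, so this flat response was not particular to SUDHL10. PLD6, a mitochondrial phospholipase gene, gave 0.07 against -1.33 to 0.05 (contrast 0.62, adjusted p = 0.020). EPOP, a partner of a Polycomb complex, gave 0.19 against -1.0 to 0.03, the highest again in SUDHL2 (contrast 0.67, adjusted p = 0.028). Over 23 alternatives the contrast did not pass in 13 for SNHG15, 11 for EPOP, 7 for PLD6 and 5 for LYAR.

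The lists around these genes showed small shifts in SUDHL10. Of 46 ribosome biogenesis genes 0 passed in the SUDHL10 response, beside 0.94% rising and 0.715% falling among all genes. The list median was -0.11, against medians of -0.55 (TMD8) to -0.07 (SUDHL2) in the other lines. The nucleolar proteins NCL and FBL gave 0.05 and -0.08. In the direct contrast 1 of the 46, LYAR, was higher and 0 were lower, beside 0.273% and 0.201% of all genes. Of 34 MYC-linked metabolic genes 2 passed in the SUDHL10 response, MYC itself and the mitochondrial import gene TIMM23, which fell by 0.31 (adjusted p = 0.038, not passing in 9 of 15 alternatives). The median of that list was -0.06, against -0.41 (OCILY1) to -0.02 (SUDHL2) elsewhere, and ODC1, the rate-limiting enzyme of polyamine synthesis, gave -0.09. These medians are descriptions, and SUDHL2, which had 1 called gene, lay closer to 0 than SUDHL10 in both lists.

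**Figure D3:**
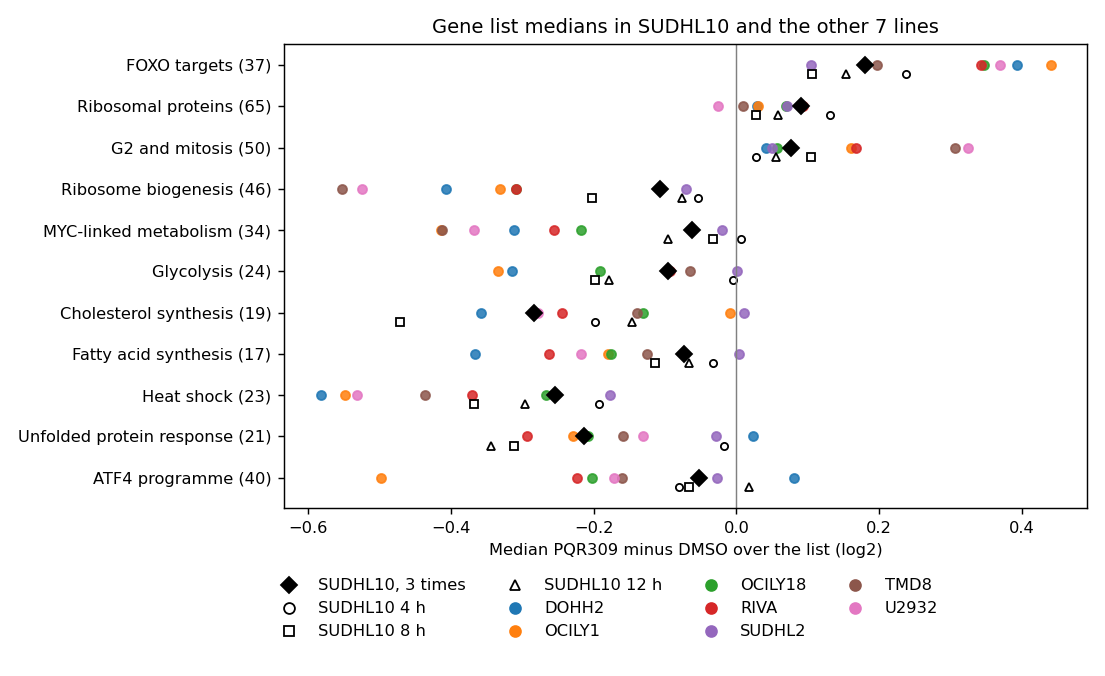
Each row is a gene list with the number of genes tested in brackets; the horizontal axis is the median log2 difference, PQR309 minus DMSO (black diamond, SUDHL10 over 3 times; open symbols, its single times; coloured points, the other 7 lines). For ribosome biogenesis SUDHL10 sits at -0.11, with the lines from -0.55 to -0.07; for FOXO targets it sits at 0.18, with the lines from 0.10 to 0.44.

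Other genes rose in SUDHL10 and lay above the 7 other line means. VPREB1 exceeded the others by 0.93 (SE 0.12, adjusted p = 0.00026, limma), but only 2 other lines were above the detection limit, and the highest of the 7 means was 0.57 (RIVA, where the DMSO level was 6.58). PEX5, the receptor that imports peroxisomal proteins, read 9.90, 9.75 and 9.81 under DMSO and 10.75, 10.68 and 10.72 under PQR309. All treated arrays were above all DMSO arrays, and the contrast was 0.82 (adjusted p = 0.00015), although U2932 came near with a mean of 0.76. ELF1 had a positive mean in all 8 lines, from 0.03 in SUDHL2 to 0.53 in U2932 among the others, and exceeded the mean of the others by 0.78 (adjusted p = 0.0033). SGK1, a kinase gene of the PI3K pathway, went from 10.25, 10.21 and 9.98 to 10.88, 10.74 and 10.52 in SUDHL10. Its other line means ran from -1.10 (TMD8) to 0.36 (DOHH2), and the contrast was 0.73 (adjusted p = 0.017, and 0.12 against OCILY1, OCILY18 and DOHH2 alone). The dimmest SGK1 probe, above the limit on all 6 SUDHL10 arrays, gave -0.09 and a contrast of -0.07. The remaining SGK1 probes gave 0.54 and 0.52. EIF2AK3 exceeded the others by 0.58 (adjusted p = 0.017), with its next highest mean, 0.76, in DOHH2.

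The chemokine gene CCL3, a product of stimulated B cells, had means of -1.76 (DOHH2) to -0.07 (OCILY1) in the other lines and 0.10 in SUDHL10 (contrast 0.68, adjusted p = 0.015, limma). Its probe was above the limit on only 2 of the 6 SUDHL10 arrays, at 6.64 to 6.89, so a fall could not have been measured there. The probe of CCL3L3, a near-identical copy, was above the limit on all 6 arrays. It gave -0.02 in SUDHL10, within the -1.83 (DOHH2) to -0.01 (OCILY1) of the other lines.

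Of the 10 lowest contrasts, ranked by the same rule, 6 did not pass in the SUDHL10 response, and the means of the other lines were mostly positive. SUDHL2, which had 1 called gene, lay nearest to SUDHL10 for TSC22D3 (0.10), PDE4B (0.20), RBM38 (-0.01) and RASSF6 (0.16). TSC22D3, the glucocorticoid-induced leucine zipper, read 8.18, 7.26 and 7.17 under DMSO and 8.13, 7.14 and 7.18 under PQR309, so treated and control arrays overlapped and both were highest at 4 h. Its SUDHL10 mean was -0.06, against 0.10 to 1.47 elsewhere (contrast -0.68, SE 0.11, adjusted p = 0.0035, limma). PDE4B, which breaks down cyclic AMP, gave -0.08 against 0.20 to 1.03 (contrast -0.70, adjusted p = 0.027), a contrast that did not pass in 12 of 23 alternatives. RBM38, an RNA-binding protein gene, gave -0.09 against -0.01 to 1.03 (contrast -0.56, adjusted p = 0.022). PLEKHA2, whose protein binds a product of PI3K lipids, gave -0.30 against -0.04 to 0.58 (contrast -0.62, adjusted p = 0.017), and TOX2, a nuclear factor of lymphocytes, -0.43 against -0.11 to 0.58 (contrast -0.62, adjusted p = 0.018). RASSF6, a Ras-association family gene, had means of 0.16 to 1.47 in the other lines and 0.07 in SUDHL10 (contrast -0.78, adjusted p = 0.0080). On the probe used, RASSF6 was at 6.61 to 6.77 on the SUDHL10 arrays, at the detection limit, and at 7.91 to 10.23 under DMSO in the others. Another RASSF6 probe, at 7.64 under DMSO in SUDHL10, was above the limit on all 6 arrays. It gave -0.06 against -0.12 to 1.33 elsewhere, a contrast of -0.69. Other measured probes of RBM38 and TOX2 gave -0.07 against -0.13 to 0.99, and -0.13 against -0.15 to 0.23. A second TSC22D3 probe, above the limit on 3 of the 6 SUDHL10 arrays, gave 0.09 against 0.04 to 1.57. On these probes SUDHL10 lay within the range of the other lines.

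**Figure D4:**
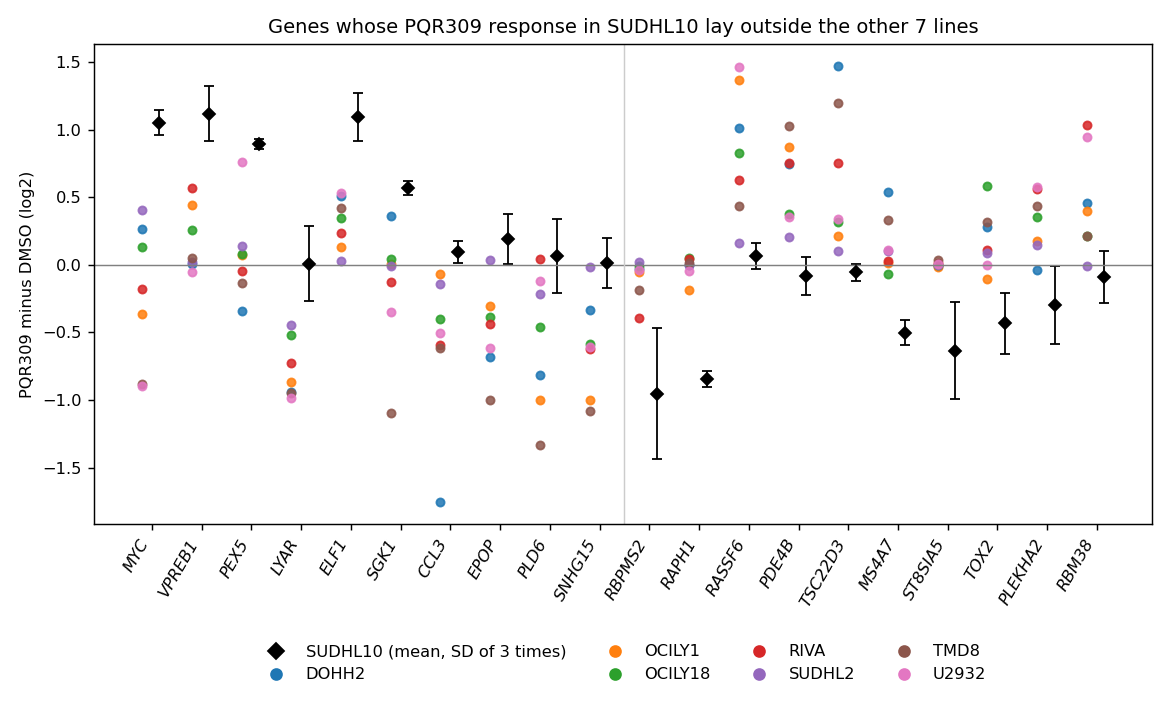
Shown are the 10 highest and 10 lowest contrasts among named genes outside the range of the other lines on the probe used. The vertical axis is the mean log2 difference, PQR309 minus DMSO, in SUDHL10 (black diamond with SD of 3 times) and in each other line (coloured points). MYC stands at 1.05 above lines from -0.90 to 0.41, and TSC22D3 at -0.06 below lines from 0.10 to 1.47.

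The other 4 of the lowest contrasts were genes that fell in SUDHL10, and 3 of them were below the detection limit in most of the other lines. RAPH1 was at 8.56 under DMSO in SUDHL10 and at 6.51 to 6.89 in the others, of which 2 were measured. Its contrast was -0.83 (SE 0.06, adjusted p = 1.1e-07, limma) and passed in all 22 alternatives that tested it. ST8SIA5, a sialyltransferase gene, went from 9.47, 9.87 and 9.66 to 8.89, 8.86 and 9.35 in SUDHL10, while 1 other line was measured, with DMSO levels of 6.55 to 6.96 over the 7 (contrast -0.64, adjusted p = 0.0011). The membrane protein gene MS4A7 fell by 0.50 (adjusted p = 0.00062), from 7.69, 7.76 and 8.02 to 7.23, 7.15 and 7.57, against DMSO levels of 6.56 to 7.18 elsewhere, where 5 of 7 lines were measured (contrast -0.65, adjusted p = 0.00026). RBPMS2 was measured in 2 other lines, RIVA (8.79 under DMSO) and TMD8 (7.02), and its contrast was -0.85 (adjusted p = 0.00044). Its mean difference was also negative in both, -0.39 in RIVA and -0.19 in TMD8. In a line where a gene is below the limit, a fall could not have been measured. Such a line also adds little spread to the pooled fit, so these p-values do not measure the SUDHL10 spread alone. The SD of the SUDHL10 differences was 0.48 for RBPMS2, 0.36 for ST8SIA5 and 0.06 for RAPH1.

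Across the 12441 genes the SUDHL10 differences at 8 and 12 h correlated at 0.42, those at 4 and 12 h at 0.15 and those at 4 and 8 h at -0.003, as a description of genes measured on the same arrays. In the 6 lines other than SUDHL2 the correlation of 4 and 8 h was 0.239 to 0.645, and in SUDHL2 it was -0.14. MYC, PEX5, RAPH1 and RNF144B were even over the 3 times, with an SD of 0.09 or less. CXCR4 fell back from 2.10 at 4 h to 1.65 at 8 h and 1.17 at 12 h. LYAR, on the probe used, moved the other way, from -0.26 to -0.01 and 0.29, while its second probe was even (SD 0.03).

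The largest one-way shifts from 4 to 12 h, with no test, were rises for RPL21P28 (1.31), ATF4 (1.24), RPS28 (1.19), RPL23AP64 (1.14) and LTB (1.04), and falls for MAP2K2, ZYX, MEPCE, ERH and EHD4. ATF4, the amino acid stress factor, had differences of -0.78, 0.11 and 0.46. In the other 7 lines its shift ran from 0.09 to 0.68, and that of RPL21P28 from 0.36 to 1.29. RPL21P28 and RPL23AP64 are ribosomal protein pseudogenes, so their probes may read the parent genes. The differences at 4 h rest on the DMSO array with the raised raw intensity, and its part in these shifts was not tested.

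**Figure D5:**
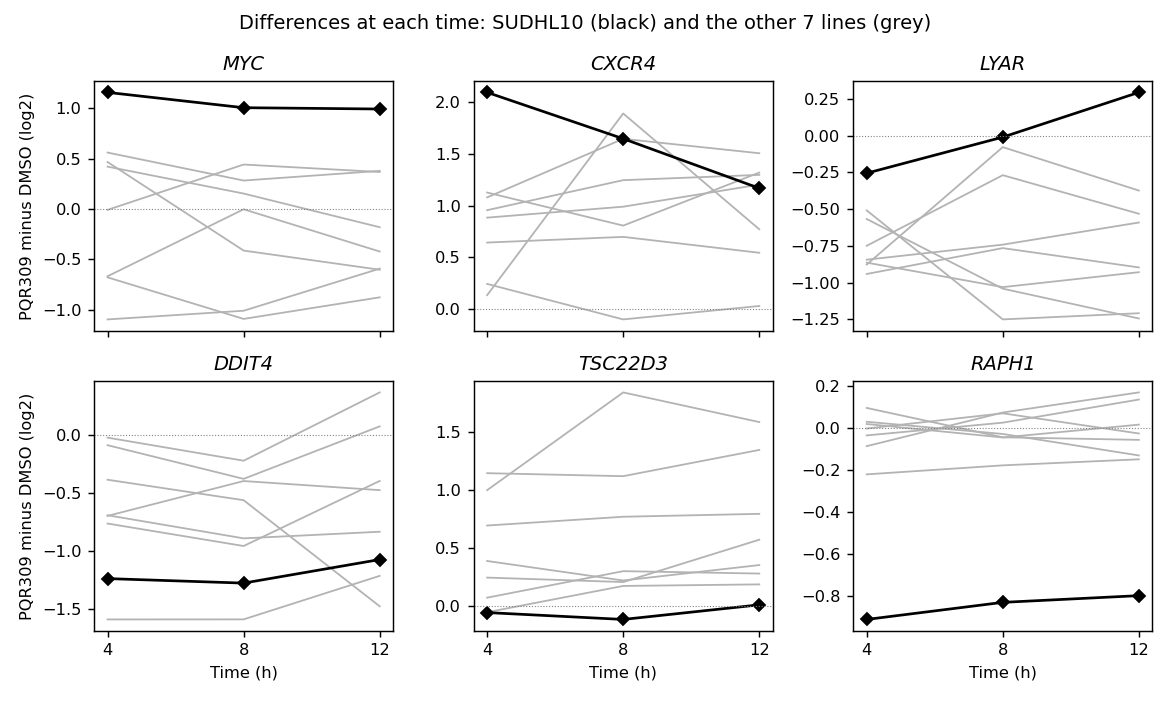
Each panel shows for 1 gene the log2 difference, PQR309 minus DMSO, at 4, 8 and 12 h in SUDHL10 (black) and the other 7 lines (grey). MYC stays at 0.99 to 1.16 in SUDHL10, above the other lines at each time, and RAPH1 stays at -0.91 to -0.80, below them.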

How the data were processed

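RNA of 8 lymphoma lines was hybridised as biotinylated cRNA to Illumina bead arrays, per the labels' protocols. The series has a normalized and a raw table. The authors' normalized table holds log2 values, made with GenomeStudio per the submitters' processing notes, and the normalization method is not given in the sources used here. The deposited raw table holds intensity values for 45 of the 48 arrays and a detection p-value in place of intensity for 3 OCILY1 arrays, per the file headers. Another 36 columns per table, of other treatments, were not used. Raw arrays of RIVA, TMD8, SUDHL2 and U2932, and the DMSO arrays of DOHH2, ranked probes differently from the normalized table, so raw values served as an alternative only.

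Of 47231 probes 30113 had 1 gene symbol in the platform annotation, 8 had several and 17110 had none. Probes in the brighter 50% by mean level entered the fit, with 1 probe per symbol, the brightest, which left 12441 genes. The detection limit of 6.73 is the highest log2 value at which a probe of the 3 OCILY1 arrays was not detected at p under 0.05. Arrays were paired by line and time, as the labels name them. In SUDHL10 the deviations of paired arrays from their group means correlated at 0.01, -0.04 and 0.45 at 4, 8 and 12 h, and in the other lines at 0.04 to 0.67, so the block is a matter of design; the closing section gives the fit without it. limma 3.58.1 (R 4.3.3) was fitted to the 24 differences with a coefficient per line (16 residual degrees of freedom, prior 5.16), and tested SUDHL10 against 0 and against the mean of the other 7. P-values were two-sided and adjusted by Benjamini-Hochberg over all genes. The fit was tested on simulated data with 200 changed genes. There was 1 array per line, treatment and time, which limits the precision; no dose is known.

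Genes named are the 10 largest rises and 10 largest falls among called genes of 1 sign at all times, the 10 highest and 10 lowest called contrasts outside the range of the other lines, up to 4 called members of each list with its defining members, and the 5 largest one-way shifts from 4 to 12 h in each direction; HINT3 was singled out after its values were seen. The members and the lists, which were written from textbook knowledge, were chosen with earlier results of these data known. Promoters came from RefSeq (GRCh38.p14). Alternatives covered the block, a time term, probe filters, probe means, centring, quantile normalization, raw intensities, moderation, left-out times and left-out lines.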

Additional observations from a re-analysis of the deposited data

Results flagged for a closer look

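The test of SUDHL10 against the mean of the other 7 lines passed for 59 genes, and the named genes among them are listed here because their effect differed between lines by that test (limma, adjusted p under 0.05). Higher in SUDHL10, on the log2 scale, were MYC (1.27), VPREB1 (0.93), PEX5 (0.82), LYAR (0.78), ELF1 (0.78), SGK1 (0.73), CCL3 (0.68), EPOP (0.67), PLD6 (0.62) and SNHG15 (0.62), and further CCL3L3 (0.78), RNF144B (0.64) and EIF2AK3 (0.58). For MYC, VPREB1, PEX5, ELF1, SGK1, RNF144B and EIF2AK3 the SUDHL10 arrays rose, while LYAR, EPOP, PLD6, SNHG15, CCL3 and CCL3L3, a near-identical copy of CCL3, did not pass there and had lower means elsewhere. Lower were RBPMS2 (-0.85), RAPH1 (-0.83), RASSF6 (-0.78), PDE4B (-0.70), TSC22D3 (-0.68), MS4A7 (-0.65), ST8SIA5 (-0.64), TOX2 (-0.62), PLEKHA2 (-0.62), RBM38 (-0.56) and SLA (-0.53). RNF144B, SLA and CCL3L3 lay within the range of the other line means. On the probes used, CCL3 and RASSF6 were near the detection limit in SUDHL10, and VPREB1, RBPMS2, RAPH1 and ST8SIA5 were measured in 2, 2, 2 and 1 of the other lines. LYAR, RASSF6, RBM38, TOX2 and TSC22D3 lay within the range of the other line means on another measured probe. A dimmer SGK1 probe gave a contrast of -0.07.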

How the results depend on the processing

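The 206 genes called in the SUDHL10 response numbered 80 with no replicate block (arrays not paired by time, 78 of them shared), 103 on raw intensities and 110 on raw intensities without DOHH2 (an alternative added after seeing the data), 8 on the SUDHL10 differences alone, and 21 to 350 when 1 time was left out. A fit with 308 calls was that with a time term. Leaving out only the SUDHL10 4 h pair, also added after seeing the data, gave 139 calls, of which 112 were shared. The contrast with the other lines went from 59 genes to 18 with no replicate block, 104 with a time term, 31 on the brighter 25% of probes, 34 on raw intensities without DOHH2, 3 with the lines as samples, and 1 to 357 when 1 time or 1 line was left out. Its share of higher calls was 57.6%, and 46.5% on raw intensities, 67.7% on the brighter 25% of probes 43.8% without TMD8 and 39.5% against OCILY1, OCILY18 and DOHH2 alone. The other alternatives kept both counts within 1.5 times, but not the same genes: of the 59 contrast genes 24 passed against OCILY1, OCILY18 and DOHH2 alone and 34 without the SUDHL10 4 h pair, and on raw intensities 26 of the 57 tested there did. The causes of the moves were not tested. No called gene among the 46 named responses and 22 named contrasts changed sign under the 15 and 23 alternatives, while 12 of 28 named values that did not pass did. The called genes were chosen on the same arrays that most alternatives reuse, so a kept sign was likely in advance. Counted over genes and alternatives, the call was lost 208 times for the responses and 126 times for the contrasts.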

Other observations

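HINT3, a histidine triad gene singled out after its values were seen, was 1 of 3 genes to pass with the lines as samples, yet the value rests on a single array. Its SUDHL10 level was 8.24, 7.92 and 8.51 under DMSO and 8.18, 10.64 and 8.49 under PQR309 at 4, 8 and 12 h. Only the treated 8 h array was high, and in the paired fit the response of 0.88 had an adjusted p of 0.54 (limma). The means of the other lines ran from -0.39 to -0.11.

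Over all 12441 genes the SUDHL10 response correlated at 0.57 with the mean of the other 7 lines, and with single lines at 0.33 (SUDHL2) to 0.49 (DOHH2), which lay within the 0.17 to 0.67 seen between pairs of the other lines. The points are genes on 1 platform and the correlations are descriptions.

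IFI16, a sensor of DNA in the interferon programme, rose in SUDHL10 by 0.61 (adjusted p = 0.022, limma) and IFI30 fell. They were the only 2 of 40 interferon genes tested that passed, beside 0.94% rising and 0.715% falling among all genes. Of 14 MHC class II, 29 histone, 47 oxidative phosphorylation and 50 lysosome or autophagy genes 0 passed, beside the same shares of all genes.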
